A study of Mus musculus with 35 samples.

Results

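The genes of glycolysis, the pyruvate dehydrogenase step and the pentose phosphate pathway were followed in RNA-seq of mouse hematopoietic stem/progenitor cells (HSPCs) from bone marrow. A list of 39 genes was named by their enzyme function, of which 37 were among the 11982 gene names of the RNA table. Aldoc and Eno2 were not analysed here. Polyadenylated RNA had been sequenced in 2 wild type (WT) and 2 JMJD1B-/- libraries, all on the mixed 129P2xC57BL/6J strain background, and the labels name no treatment other than the gene-trap knockout. JMJD1B, encoded by Kdm3b, is a histone demethylase, and the knockout is a gene trap carried by all cells of the animal, hematopoietic or not. The study used adult mice of both sexes, and the sources used here do not give the sex, the age or the sort gate of single libraries. The question was which of these metabolic genes differ in RNA level between WT and JMJD1B-/- HSPCs.

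Glycolysis splits glucose into pyruvate through a trunk that runs from hexokinase to pyruvate kinase. Pyruvate is then either reduced to lactate by lactate dehydrogenase or fed to mitochondria by the pyruvate dehydrogenase complex, which pyruvate dehydrogenase kinases switch off by phosphorylation. The pentose phosphate pathway branches off after the first step and yields NADPH and ribose for nucleotides. Several steps are encoded by more than 1 gene, with isozymes typical of different cell types. Quiescent stem cells are known for relying on glycolysis, and mature red cells, which lack mitochondria, depend on it entirely.

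Levels are given as RPKM, a read count scaled by transcript length and library size, which allows genes to be set beside each other within a library. Unless stated otherwise, 4 values in a sentence stand in the order WT replicate 1, WT replicate 2, JMJD1B-/- replicate 1 and JMJD1B-/- replicate 2. Depth was estimated at 6100000 reads for JMJD1B-/- replicate 1 and at 17500000 to 24600000 reads for the others, so that 3 reads on a 1-kb transcript correspond to 0.491 RPKM in the former and 0.122 to 0.171 RPKM in the latter. Kdm3b, the targeted gene, measured 30.98, 24.29, 4.00 and 4.63 RPKM, with a log2 difference of -2.65 ± 0.242 (SE; limma, adjusted p = 0.0314). Over the 13 alternatives its log2 difference stayed between -2.82 and -2.42. In limma without a trend and in the gene-by-gene test, no gene passed an adjusted 0.05, Kdm3b included. Xist, the RNA of the inactive X chromosome, reached 331.6 RPKM in WT replicate 2 and did not exceed 0.0510 RPKM elsewhere, and the Y-linked gene Ddx3y had 0.411 RPKM in that library against 25.5 to 29.3 RPKM in the others. Sex and genotype therefore do not coincide, and 1 of the 2 WT libraries stands apart. Of the HSPC-defining genes, Kit measured 66.9, 62.5, 51.6 and 92.7 RPKM, whereas Ly6a, the gene of Sca-1, measured 1.92, 2.96, 2.17 and 0.629 RPKM. In bulk RNA, fewer cells of a type and less RNA per cell cannot be told apart.

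The summed level of the pathway overlapped between the genotypes, while single genes lay on either side. Summed over the 37 genes, RPKM was 1388, 1366, 1315 and 1544, so that the JMJD1B-/- mean was 103.8% of the WT mean. Over the 37 genes the median log2 difference (JMJD1B-/- minus WT) was 0.02, beside -0.02 over all 11863 genes tested. In the limma test on log2(RPKM + 0.1), Ldhb, Hk3, Pfkp and Pgam1 were lower and Pklr and Pdhb were higher in JMJD1B-/- at an unadjusted p under 0.05. The 4 lower genes are 10.8% of the members, where 6.33% of all genes tested were lower, and the 2 higher genes are 5.41%, where 3.81% of all genes were higher. These shares rest on so few genes that they are not read as a property of the set. After adjustment over all genes, 0 of the 37 had p under 0.05 in limma, with adjusted p between 0.196 and 0.997, and 0 in the gene-by-gene test. Over all genes tested, 5 (0.0421%) passed that adjusted threshold in limma. These counts depended on single libraries, as did those over all genes. Without JMJD1B-/- replicate 1, 7 members were lower and 6 higher at an unadjusted p under 0.05, where 1309 of the 11863 genes were lower and 1258 (10.6%) higher. In that fit 5 members (Hk3, Pgam1, Pkm2, Pklr and Ldhb) had an adjusted p under 0.05, beside 5.31% of all genes. Without JMJD1B-/- replicate 2, 5 members were lower and 2 higher, where 15.3% and 6.13% of all genes were, and Hk3 and Ldhb had an adjusted p under 0.05, beside 5.64% of all genes. Without WT replicate 1, 2 members were lower and 0 higher (1.49% and 1.04% of all genes), and without WT replicate 2, 4 were lower and 1 higher (2.29% and 2.11%), with none past the adjusted threshold in either case. A gene is said here to pass the test where its unadjusted p in limma is under 0.05. Without regard to any test, the JMJD1B-/- libraries were the 2 lowest of the 4 for 8 members (21.6%, beside 22.7% of all genes) and the 2 highest for 10 members (27.0%, beside 20.1%). The log2 difference was below 0 for 17 members (45.9%, beside 53.0% of all genes) and above 0 for 20 members (54.1%, beside 47.0%).

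**Figure D1:**
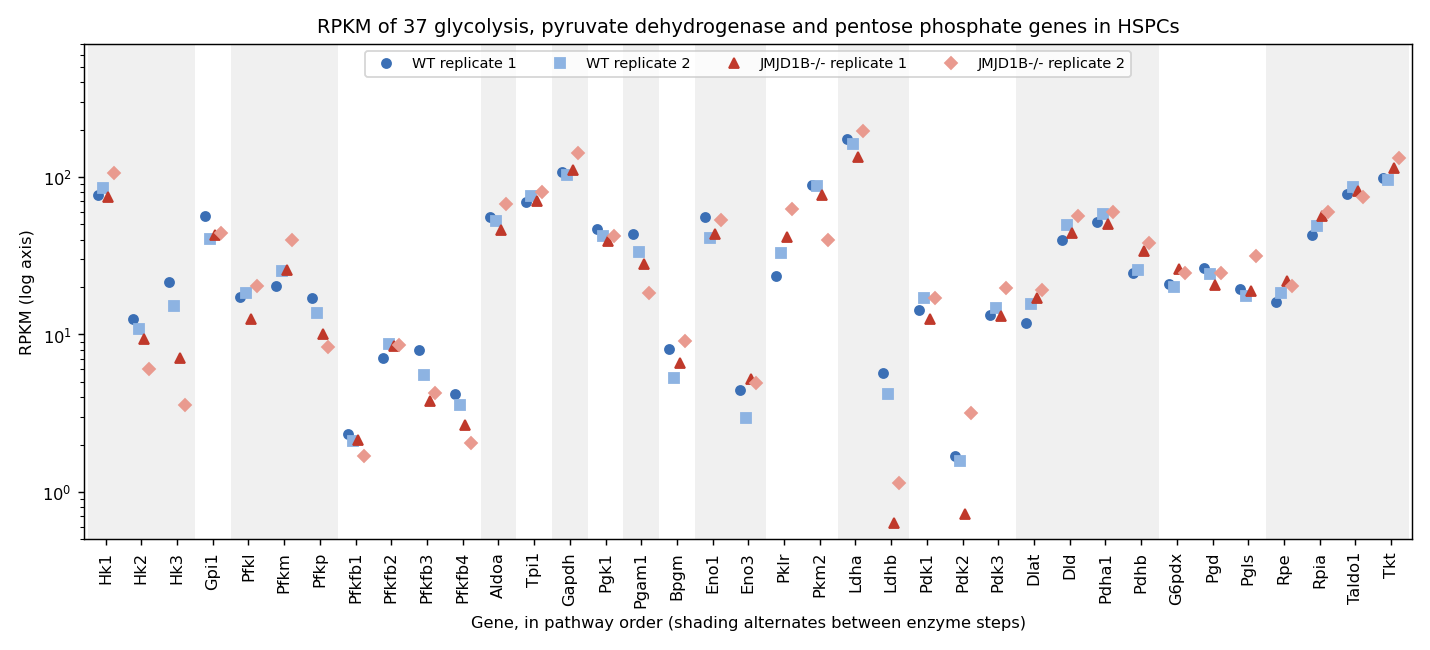
RPKM on a log axis of the 37 genes in pathway order, with 1 point for each library (blue for WT, red for JMJD1B-/-) and shading that alternates between enzyme steps. Hk3 spans 21.4 to 3.57 RPKM and Ldhb spans 5.68 to 0.631 RPKM from WT to JMJD1B-/- libraries.

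**Figure D2:**
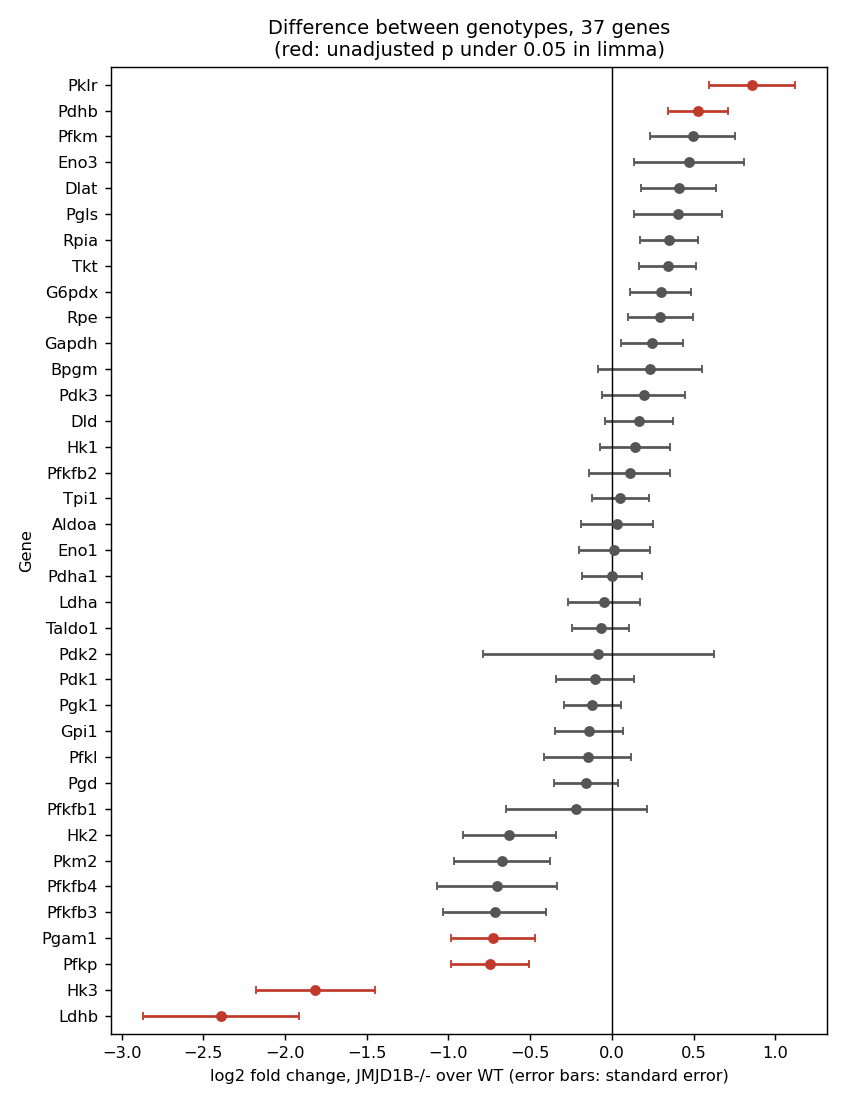
Log2 difference between JMJD1B-/- and WT for the 37 genes on the log2(RPKM + 0.1) scale, with points for the limma estimate, bars for its standard error and red for an unadjusted p under 0.05. Estimates run from -2.39 for Ldhb to 0.86 for Pklr, and 19 of the 31 genes in grey lie within 0.25 of 0.

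Promoter sequences of the 6 genes that differed at an unadjusted p under 0.05, and of Ldha as the partner of Ldhb in 1 step, are shown because hypoxia-inducible factors are known regulators of glycolytic genes and GATA factors of erythroid genes. Each line holds the 250 bases upstream of the first transcript start that RefSeq lists for the gene (assembly GRCm38.p6), 5′ to 3′ on the gene's strand, and capitals mark the letters ACGTG or GCGTG, the core of the hypoxia response element, or the letters bound by GATA factors, AGATAA, on either strand. The Hk3 window is chr13:55021386-55021635 (minus strand) and the Pfkp window is chr13:6648772-6649021 (minus strand). Those of Pgam1 and Pklr are chr19:41911621-41911870 and chr3:89135892-89136141 (plus strand). For lactate dehydrogenase they are chr7:46845554-46845803 (plus strand) for Ldha and chr6:142507958-142508207 (minus strand) for Ldhb, and for Pdhb the window is chr14:8172993-8173242 (minus strand).
Hk3: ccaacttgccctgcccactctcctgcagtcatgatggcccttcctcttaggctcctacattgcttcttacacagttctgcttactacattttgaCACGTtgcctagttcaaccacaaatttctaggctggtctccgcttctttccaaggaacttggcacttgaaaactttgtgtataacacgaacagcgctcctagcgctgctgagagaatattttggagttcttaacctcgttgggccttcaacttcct
Pfkp: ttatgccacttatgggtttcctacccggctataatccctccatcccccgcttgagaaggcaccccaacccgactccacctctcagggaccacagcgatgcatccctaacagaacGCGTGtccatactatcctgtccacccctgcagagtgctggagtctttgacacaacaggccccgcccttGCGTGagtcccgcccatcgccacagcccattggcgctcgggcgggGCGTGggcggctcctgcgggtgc
Pgam1: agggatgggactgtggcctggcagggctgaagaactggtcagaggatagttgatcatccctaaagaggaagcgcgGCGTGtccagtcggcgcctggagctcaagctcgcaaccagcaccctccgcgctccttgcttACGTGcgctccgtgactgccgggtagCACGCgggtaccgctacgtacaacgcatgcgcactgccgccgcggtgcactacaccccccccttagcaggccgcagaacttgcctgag
Pklr: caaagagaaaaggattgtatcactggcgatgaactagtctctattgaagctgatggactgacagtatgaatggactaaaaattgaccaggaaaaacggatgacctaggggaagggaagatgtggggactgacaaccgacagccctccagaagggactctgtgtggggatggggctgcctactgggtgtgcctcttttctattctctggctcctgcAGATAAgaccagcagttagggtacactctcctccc
Ldha: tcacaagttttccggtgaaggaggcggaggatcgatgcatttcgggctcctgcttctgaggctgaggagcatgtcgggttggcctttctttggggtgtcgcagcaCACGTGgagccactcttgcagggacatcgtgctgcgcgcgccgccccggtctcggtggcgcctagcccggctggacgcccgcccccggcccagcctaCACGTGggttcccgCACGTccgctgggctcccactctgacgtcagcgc
Ldhb: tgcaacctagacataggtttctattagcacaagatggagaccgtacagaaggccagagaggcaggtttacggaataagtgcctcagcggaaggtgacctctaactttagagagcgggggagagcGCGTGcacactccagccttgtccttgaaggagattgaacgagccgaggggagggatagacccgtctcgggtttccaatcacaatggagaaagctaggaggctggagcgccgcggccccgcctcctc
Pdhb: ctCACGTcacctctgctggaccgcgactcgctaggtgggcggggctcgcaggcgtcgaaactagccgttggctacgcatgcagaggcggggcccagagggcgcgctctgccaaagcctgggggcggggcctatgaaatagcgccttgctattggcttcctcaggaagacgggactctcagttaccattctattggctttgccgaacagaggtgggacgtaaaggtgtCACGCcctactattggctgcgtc
The Ldha window held 5 matches to ACGTG counted over both strands, in which the palindrome CACGTG counts on each, and the Ldhb window held a single GCGTG. At the second start listed for Ldha, the window, not printed, held 0 ACGTG and 1 GCGTG. Pfkp held 3 matches to GCGTG, Pgam1 held 1 ACGTG and 2 GCGTG, Hk3 held 1 ACGTG, and Pdhb held 1 of each. Among the printed windows, Pklr was without either core and was the one with AGATAA. At the second start listed for Pklr, the window, not printed, held 0 AGATAA. Over all 39 listed genes, 27 windows (69.2%) held ACGTG or GCGTG, against 10431 of 27025 RefSeq genes (38.6%), and 3 (7.69%) held AGATAA, against 10.3%. Both cores contain CG, the part of the windows' base composition in these shares was not tested, and a match is a description of the letters, not of binding.

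Hexokinases phosphorylate glucose and so commit it to the cell. Hk1, the widely expressed form, carried most of the step with 76.6, 84.7, 74.4 and 106.1 RPKM, and the genotypes overlapped (limma log2 difference 0.14 ± 0.215, SE). Hk3, a form typical of granulocytes and monocytes, had 21.4, 15.1, 7.11 and 3.57 RPKM. Both JMJD1B-/- libraries were thus below both WT libraries, at 29.3% of the WT mean, with a log2 difference of -1.81 ± 0.364 (SE; limma, adjusted p = 0.197). Leaving out any 1 library gave log2 differences for Hk3 between -2.30 and -1.33, each past an unadjusted 0.05 in limma, whereas Hk3 missed that threshold in the gene-by-gene test. Hk2, the insulin- and hypoxia-regulated form, had 12.54, 10.86, 9.36 and 6.04 RPKM, also without overlap, but it missed the threshold (-0.63 ± 0.284; limma, adjusted p = 0.509). The Hk2 difference was -0.94 and past an unadjusted 0.05 without JMJD1B-/- replicate 1, and -0.32 without replicate 2. The summed RPKM of the 3 hexokinases was 110.5, 110.7, 90.88 and 115.7, so that the step as a whole overlapped between genotypes, whereas the shares of Hk1 and Hk3 in it did not. Hk1 made up 69.3% and 76.5% of the sum in WT and 81.9% and 91.7% in JMJD1B-/-. Hk3 made up 19.4% and 13.6% in WT and 7.83% and 3.08% in JMJD1B-/-. The difference in the Hk1 share was 13.9 percentage points, and 8.96 points without JMJD1B-/- replicate 2. With 2 libraries against 2, an exact permutation test of a share cannot go below a two-sided p of 0.333, so the shares are given as a description.

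Phosphofructokinase, the main control point of the trunk, is built from the liver (Pfkl), muscle (Pfkm) and platelet (Pfkp) subunits. Pfkp had 17.2, 13.75, 10.04 and 8.29 RPKM, lower in both JMJD1B-/- libraries and at 59.3% of the WT mean. Its log2 difference was -0.75 ± 0.239 (SE; limma, adjusted p = 0.394), and without WT replicate 1 it was -0.59 and no longer passed an unadjusted 0.05. Pfkp also missed that threshold in the gene-by-gene test. Pfkm had 20.2, 25.3, 25.55 and 39.7 RPKM, which put both JMJD1B-/- libraries above both WT libraries by a narrow margin for replicate 1, without passing the test (0.49 ± 0.258; limma, adjusted p = 0.574). The Pfkm difference was 0.81 and past an unadjusted 0.05 without JMJD1B-/- replicate 1, 0.18 without JMJD1B-/- replicate 2 and 0.33 without WT replicate 1. Pfkl had 17.4, 18.2, 12.6 and 20.4 RPKM, with overlap, and its log2 difference was 0.20 without JMJD1B-/- replicate 1 and -0.49, past an unadjusted 0.05, without replicate 2. The summed RPKM of the 3 subunits was 54.75, 57.3, 48.2 and 68.5, again overlapping between genotypes. Within that sum, Pfkm had shares of 36.9% and 44.2% in WT and 53.0% and 58.0% in JMJD1B-/-, and Pfkp had 31.4% and 24.0% against 20.8% and 12.1%. For hexokinase and phosphofructokinase alike, the libraries of the genotypes were thus separated in the shares of single isozymes and not in the summed level of the step. The share of Pfkl separated as well, with 31.7% and 31.8% in WT and 26.2% and 29.9% in JMJD1B-/-. Shares within a step are parts of a whole and so are tied to each other. Separated shares occurred in all 7 steps with several isozyme genes in the table.

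The 4 PFKFB enzymes make and break fructose 2,6-bisphosphate, the allosteric activator of phosphofructokinase. Their summed RPKM was 21.6, 19.9, 17.0 and 16.5, lower in both JMJD1B-/- libraries at 80.8% of the WT mean, and none of the 4 passed an unadjusted 0.05 in limma with all libraries as deposited. Pfkfb3, the strongly kinase-biased and hypoxia-inducible form, had 7.98, 5.504, 3.76 and 4.25 RPKM (-0.72 ± 0.314; limma, adjusted p = 0.493). Pfkfb4 had 4.16, 3.59, 2.66 and 2.05 RPKM (-0.70 ± 0.367; limma, adjusted p = 0.573). For both genes the groups did not overlap. Pfkfb3 passed an unadjusted 0.05 under median-ratio scaling and without JMJD1B-/- replicate 2 (-0.80), and its difference was -0.45 without WT replicate 1. Pfkfb4 passed it in limma without a trend and without JMJD1B-/- replicate 1 (-0.88), and its difference was -0.52 without JMJD1B-/- replicate 2. Pfkfb2, with 7.13, 8.74, 8.49 and 8.54 RPKM, and Pfkfb1, with 2.35, 2.10, 2.13 and 1.68 RPKM, overlapped between genotypes. The sign for Pfkfb1 was negative with RPKM as deposited (-0.22) and positive after quantile normalization (0.04), and the other 3 members kept their sign under both other scalings tried. Pfkfb2 therefore took 33.0% and 43.8% of the sum in WT and 49.8% and 51.7% in JMJD1B-/-, a difference of 12.3 percentage points that was 6.90 points without WT replicate 1.

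Of the trunk steps represented by 1 gene in the table, that of Pgam1 passed the test and the others did not. Gpi1, which interconverts glucose and fructose 6-phosphate, had 56.3, 40.7, 42.8 and 43.9 RPKM. Aldoa, the aldolase in the table, had 56.0, 52.8, 45.95 and 67.3 RPKM. Tpi1, which equilibrates the triose phosphates, had 68.9, 76.0, 70.4 and 79.8 RPKM. All of these overlapped between genotypes, with log2 differences of -0.14, 0.03 and 0.05, and those of Aldoa and Tpi1 turned negative after quantile normalization (-0.04 for each). Gapdh, the NADH-producing step and a common reference gene, had 107.9, 103.2, 110.5 and 141.2 RPKM, higher in both JMJD1B-/- libraries at 119.3% of the WT mean without passing the test (0.24 ± 0.190; limma, adjusted p = 0.693). Its log2 difference depended on the JMJD1B-/- library, with 0.42 and past an unadjusted 0.05 without replicate 1, and 0.07 without replicate 2. Pgk1, the first ATP-yielding enzyme, lay between 39.3 and 46.7 RPKM in the 4 libraries, and Bpgm, which makes the hemoglobin ligand 2,3-bisphosphoglycerate, lay between 5.29 and 9.10 RPKM.

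Pgam1, the phosphoglycerate mutase that moves the phosphate toward enolase, had 43.2, 33.3, 28.15 and 18.5 RPKM. The genotypes did not overlap, with a JMJD1B-/- mean of 61.0% of the WT mean and a log2 difference of -0.73 ± 0.257 (SE; limma, adjusted p = 0.426). It was -0.54 without WT replicate 1 and -0.43 without JMJD1B-/- replicate 2, and neither passed an unadjusted 0.05. With all 4 libraries, Pgam1 missed that threshold in limma without a trend and in the gene-by-gene test. Eno1, the main enolase, had 55.8, 40.8, 43.5 and 53.4 RPKM and overlapped, and its log2 difference of 0.02 became -0.05 after quantile normalization. Eno3, the muscle enolase, had 4.43, 2.95, 5.24 and 4.88 RPKM, above both WT libraries in JMJD1B-/- without passing the test (0.47 ± 0.335; limma, adjusted p = 0.665). The Eno3 difference was 0.19 without WT replicate 2 and 0.76 without WT replicate 1. At 7.36%, 6.76%, 10.8% and 8.37% of the enolase sum, Eno3 remained the minor form in all 4 libraries. Gapdh, Pgk1, Pgam1, Ldha, Tpi1, Aldoa, Eno1 and Pkm2 have processed pseudogenes in the mouse genome, and how reads with more than 1 match were counted is not given in the sources used here, so their levels are uncertain to that extent.

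Pyruvate kinase, the last step of the trunk, had with all 4 libraries the largest difference in shares between genotypes among the 7 steps with several isozyme genes in the table. Pklr, the form of red cells and liver, had 23.7, 33.05, 41.4 and 62.2 RPKM. It was higher in both JMJD1B-/- libraries, at 1.83 times the WT mean, with a log2 difference of 0.86 ± 0.262 (SE; limma, adjusted p = 0.372). Without WT replicate 1 the difference was 0.62 and no longer passed an unadjusted 0.05, and without JMJD1B-/- replicate 2 it was 0.56 and did. With all 4 libraries, Pklr missed that threshold in limma without a trend and in the gene-by-gene test. Pkm2, as the table names the gene whose transcripts encode the M1 and M2 forms of most other cells, had 88.6, 87.7, 76.5 and 40.05 RPKM. Both JMJD1B-/- libraries were below WT, at 66.1% of the WT mean, but the test was missed (-0.67 ± 0.294; limma, adjusted p = 0.493). JMJD1B-/- replicate 2 decided this value, since the log2 difference was -0.20 without it and -1.14 without replicate 1, the latter past an unadjusted 0.05. The summed RPKM of both genes was 112.3, 120.8, 117.9 and 102.3 and overlapped between genotypes. Pklr accounted for 21.1% and 27.4% of that sum in WT and for 35.1% and 60.8% in JMJD1B-/-. The JMJD1B-/- minus WT difference in the share of Pkm2 was -23.7 percentage points, and it was -10.9 points without JMJD1B-/- replicate 2 and -36.6 points without replicate 1. Without JMJD1B-/- replicate 2 it was no longer the largest, as the share of Pfkm then differed by 12.5 points and that of Pfkfb2 by 11.4 points.

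**Figure D3:**
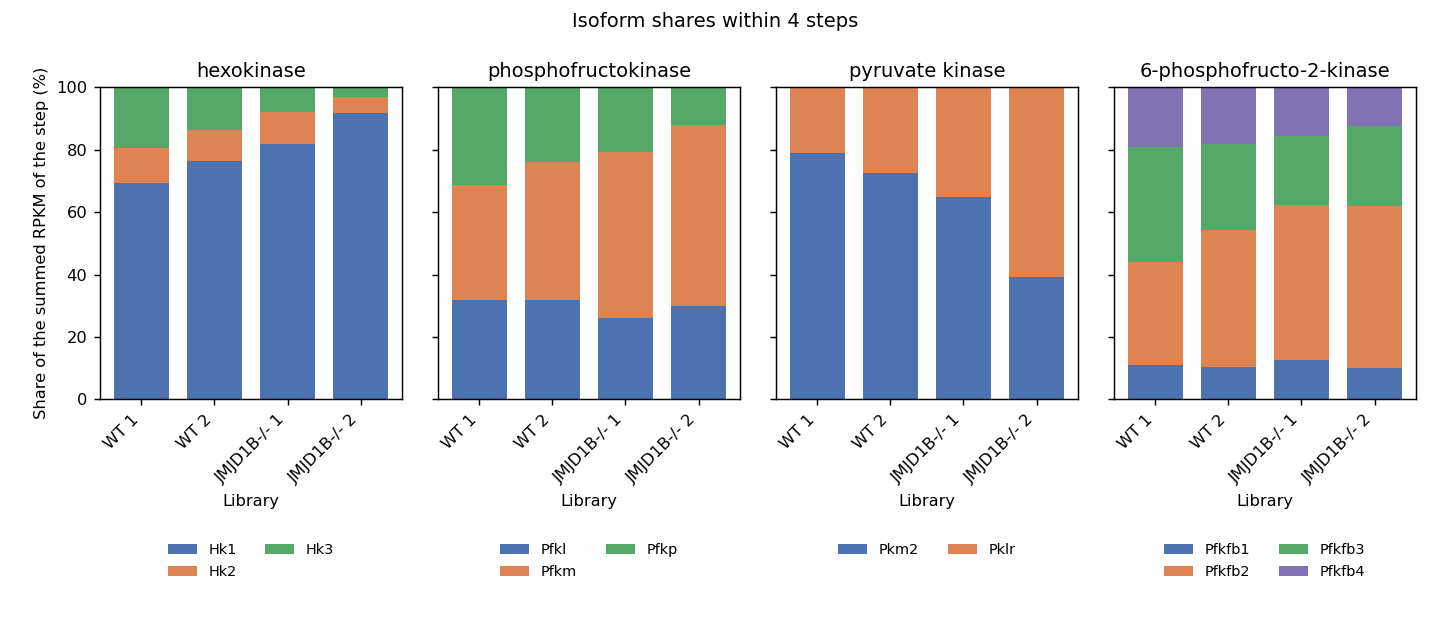
Stacked bars of the share of each gene, in percent, in the summed RPKM of its step for the 4 libraries, in the steps of hexokinase, phosphofructokinase, pyruvate kinase and 6-phosphofructo-2-kinase. The share of Hk1 reached 91.7%, that of Pfkm 58.0% and that of Pklr 60.8% in JMJD1B-/- replicate 2, the highest of the 4 libraries in each case.

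Lactate dehydrogenase converts pyruvate and lactate into each other. Ldha, the member with the highest WT level in the set and above 98.1% of the listed genes, had 174.5, 163.1, 134.9 and 197.5 RPKM. Its genotypes overlapped, with a JMJD1B-/- mean of 98.5% of the WT mean (log2 difference -0.05 ± 0.222, SE; limma, adjusted p = 0.964). Ldhb, the form favoured in tissues that consume lactate, had 5.68, 4.201, 0.631 and 1.13 RPKM, which was 17.9% of the WT mean in JMJD1B-/- and the largest log2 difference of the 37 genes (-2.39 ± 0.475, SE; limma, adjusted p = 0.196). By the estimated depth these are about 129, 134, 5 and 31 reads, and for the 5 reads an exact Poisson 95% interval, which covers counting error only, runs from 0.205 to 1.47 RPKM. That interval ends below the WT levels. Ldhb kept an unadjusted p under 0.05 in 13 of 13 alternatives, with log2 differences between -2.77 and -1.66. Because Ldha was far more abundant, Ldhb made up 3.15% and 2.51% of the lactate dehydrogenase sum in WT and 0.465% and 0.571% in JMJD1B-/-, and the summed RPKM of 180.2, 167.3, 135.6 and 198.6 followed Ldha.

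The pyruvate dehydrogenase complex turns pyruvate into acetyl-CoA. Pdhb, the beta subunit of its E1 enzyme, had 24.6, 25.5, 34.0 and 38.4 RPKM, with close replicates and no overlap. It was at 144.6% of the WT mean, with a log2 difference of 0.53 ± 0.183 (SE; limma, adjusted p = 0.425). Without WT replicate 1 and without WT replicate 2 the difference was 0.50 and 0.56, and neither passed an unadjusted 0.05, nor did Pdhb in limma without a trend. Dlat, the E2 acetyltransferase, had 11.8, 15.6, 17.0 and 19.3 RPKM, higher in both JMJD1B-/- libraries without passing the test (0.41 ± 0.229; limma, adjusted p = 0.588). The Dlat difference was 0.21 without WT replicate 1. Dld, the E3 dehydrogenase shared with other complexes, had 40.0, 49.6, 44.15 and 56.7 RPKM and overlapped. Pdha1, the alpha subunit of E1 and partner of Pdhb in a heterotetramer, had 52.1, 58.2, 50.7 and 60.05 RPKM, with a log2 difference of 0.00 ± 0.184 that became -0.06 after quantile normalization. The summed RPKM of the complex was 128.5, 148.9, 145.8 and 174.3, at 115.4% of the WT mean with overlap.

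The kinases that inactivate the complex did not differ beyond the spread as a group, at 29.3, 33.4, 26.3 and 39.75 RPKM in sum. Pdk1, a hypoxia target, had 14.3, 17.0, 12.5 and 17.0 RPKM, and Pdk3 had 13.25, 14.8, 13.07 and 19.6 RPKM. Pdk2 was low, with 1.70, 1.57, 0.720 and 3.17 RPKM, and the 2 JMJD1B-/- libraries lay on either side of both WT libraries. No direction can be given for Pdk2, whose log2 difference was -0.08 ± 0.707 (SE), 0.17 after quantile normalization, -1.08 without JMJD1B-/- replicate 2 and 0.92 without replicate 1. Pdk1 held 49.0% and 51.0% of the kinase sum in WT and 47.5% and 42.7% in JMJD1B-/-, and Pdk3 held 45.2% and 44.3% against 49.8% and 49.3%, so that both shares separated by genotype by a few percentage points.

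In the pentose phosphate pathway, no gene passed an unadjusted 0.05 in limma with all libraries. The log2 difference was above 0 for 5 of the 7 genes, beside 47.0% of all genes tested. With 7 genes, this count is not read as a property of the pathway. The summed RPKM of its 7 genes was 303.2, 310.3, 341.1 and 367.7, at 115.5% of the WT mean and with both JMJD1B-/- libraries above both WT libraries. Of all single genes tested, 20.1% had the libraries in that order. In the oxidative branch, which yields NADPH, G6pdx had 20.9, 20.03, 25.9 and 24.5 RPKM (0.30 ± 0.187; limma, adjusted p = 0.626), again without overlap. Pgls, the lactonase, had 19.4, 17.6, 19.0 and 31.5 RPKM, and Pgd, which releases ribulose 5-phosphate, had 26.4, 24.1, 20.7 and 24.6 RPKM. Both of these overlapped. The log2 difference of Pgls was 0.77 and past an unadjusted 0.05 without JMJD1B-/- replicate 1, and 0.04 without replicate 2, and G6pdx passed that threshold in the gene-by-gene test. In the non-oxidative branch, which exchanges pentoses with the trunk, the sum was 236.5, 248.6, 275.5 and 287.1 RPKM, without overlap and at 116.0% of the WT mean. Tkt, transketolase, carried much of it with 99.2, 95.1, 114.7 and 132.0 RPKM (0.34 ± 0.174; limma, adjusted p = 0.568). Rpia, the ribose isomerase, had 43.15, 48.9, 57.0 and 60.2 RPKM (0.35 ± 0.175; limma, adjusted p = 0.558), and Rpe, the epimerase, had 16.0, 18.4, 21.7 and 20.4 RPKM (0.29 ± 0.199, and 0.19 without WT replicate 1; limma, adjusted p = 0.648). Tkt and Rpia passed an unadjusted 0.05 under median-ratio scaling of the libraries, and Tkt also without JMJD1B-/- replicate 1 (0.44, and 0.24 without replicate 2). Taldo1, transaldolase, had 78.15, 86.1, 82.1 and 74.5 RPKM and overlapped.

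Pgk1, Pdha1, G6pdx, Pdk3 and Pfkfb1 lie on the X chromosome, and the WT libraries, of which replicate 2 had high Xist, were therefore compared for them. In that order, their absolute log2 gaps between the WT libraries were 0.145, 0.16, 0.0607, 0.156 and 0.153. Without WT replicate 2, the log2 differences of these genes between genotypes were -0.19, 0.08, 0.27, 0.27 and -0.30. With all 4 libraries, none of them passed an unadjusted 0.05 in limma. An effect of sex on these genes was not tested. Across the set, replicates were more alike in WT than in JMJD1B-/-, with a median absolute log2 gap of 0.18 between the WT libraries and 0.35 between the JMJD1B-/- libraries, close to the 0.22 and 0.36 of all genes tested. JMJD1B-/- replicate 2 was above replicate 1 for 26 of the 37 genes, and for 7779 of all 11863 genes tested. The largest JMJD1B-/- gaps among members were those of Pdk2 with 2.0, Hk3 with 0.98, Pkm2 with 0.93 and Ldhb with 0.76 on the log2 scale, the last at the fewest reads.

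Among lists of cell type markers, the summed levels of erythroid, granulocyte, monocyte and macrophage, megakaryocyte, and stroma and endothelium genes did not overlap between genotypes. Those of basophil, eosinophil and mast cells, T and NK cells, B cells, and stem and progenitor cells overlapped. Over all genes tested, 6.33% were lower and 3.81% higher in JMJD1B-/- at an unadjusted p under 0.05, and these shares stand beside each count below. Of 20 erythroid markers tested, 18 were higher and 0 lower in JMJD1B-/- at that threshold (median log2 difference 1.25). Their summed RPKM was 1067, 1516, 2678 and 4002. The near-identical alpha-globin genes Hba-a1 and Hba-a2, whose reads may be shared, had 42.6, 53.2, 141.2 and 371.0 RPKM for Hba-a1. The beta-globin genes Hbb-b1 and Hbb-b2 had the same log2 difference of 1.98 each. Both pairs may therefore enter the same reads more than once into the count and the sum of the list. Of the erythroid markers, 0 were listed at 0 in any library. Of 12 granulocyte markers tested, 7 were lower and 3 higher (median -1.40), with sums of 315.0, 209.8, 146.1 and 66.2 RPKM. Mpo, the myeloperoxidase of primary granules, had 131.1 and 79.0 RPKM in WT and 21.4 and 12.1 RPKM in JMJD1B-/-. The 3 higher markers were the late neutrophil genes S100a9 (2.79, 1.41, 8.01 and 10.85 RPKM), S100a8 (log2 difference 0.70) and Retnlg (3.43, with overlap), and Camp was listed at 0 in WT replicate 2 and JMJD1B-/- replicate 1. Of 13 monocyte and macrophage markers, 6 were lower and 0 higher (median -1.04; sums of 180.6, 197.0, 151.0 and 46.8 RPKM), and of 12 megakaryocyte markers 8 were lower and 0 higher (median -0.80; sums of 823.2, 771.0, 332.6 and 455.8 RPKM). None of the markers in these last 2 lists was at 0 in any library. Of 14 basophil, eosinophil and mast cell markers, 9 were lower and 0 higher, with the lowest median of these lists (-2.12). Prss34, a basophil protease, had 246.2, 257.9, 30.6 and 19.9 RPKM (-3.35 ± 0.230, SE; limma, adjusted p = 0.00637), whereas the sum of that list, 6248, 1701, 4669 and 1221 RPKM, overlapped and was mostly the eosinophil granule gene Prg2 with 5377, 988.3, 4328 and 1077 RPKM. Of 13 T and NK cell markers, 1 was lower and 2 were higher (median 1.06), and JMJD1B-/- replicate 1 stood apart in their sums of 34.5, 49.6, 123.3 and 25.6 RPKM. Of 11 stroma and endothelium markers, 3 were lower and 0 higher (median -1.41), with sums of 32.0 and 23.3 RPKM in JMJD1B-/- and of at least 63.1 RPKM in WT. Bglap was at 0 in JMJD1B-/- replicate 1. Of 4 B cell markers 1 was lower and 0 higher (sums of 5.41, 5.81, 5.88 and 1.09 RPKM). Of 19 stem and progenitor markers, 6 were lower and 0 higher (median -0.62; sums of 709.7, 662.5, 503.3 and 684.6 RPKM), and of 22 proliferation genes 0 were lower and 4 higher (median 0.33; sums of 1317, 1519, 1686 and 1748 RPKM). The part of these cell types in the results for Hk3, Pfkp, Pgam1, Ldhb, Pklr and Pdhb was not tested.

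**Figure D4:**
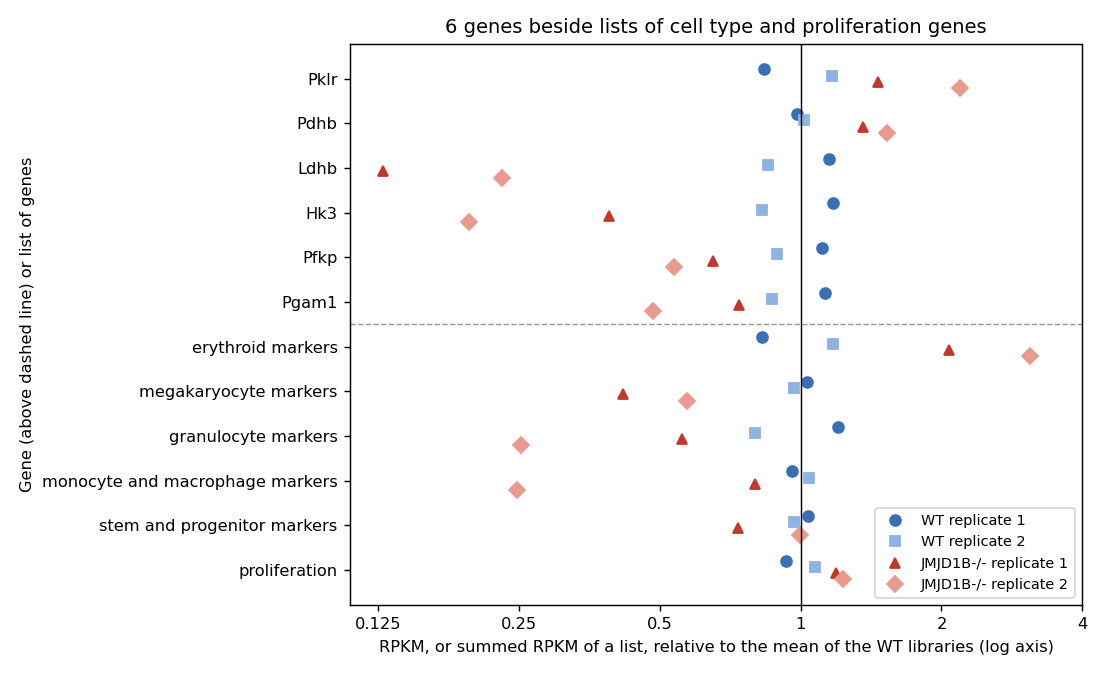
RPKM of 6 genes (above the dashed line) and summed RPKM of 6 gene lists (below it) in each library, relative to the mean of the 2 WT libraries, on a log axis. The erythroid sum was 1067 and 1516 RPKM in WT and 2678 and 4002 RPKM in JMJD1B-/-, and the granulocyte sum was 315.0 and 209.8 RPKM in WT and 146.1 and 66.2 RPKM in JMJD1B-/-. The 6 genes were chosen for passing the test, and the order of the 4 libraries, which several of these genes and lists share, links no gene to a list.

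Genes next to the set were counted from further lists. Over all genes tested, 6.33% were lower and 3.81% higher at an unadjusted p under 0.05, and these shares stand beside each count below. With 10 or 11 genes in a list, a single call is not read as a result about the list. Of 10 glucose and lactate transporters tested, 1 was lower and 1 higher at an unadjusted p under 0.05. Bsg, the chaperone of the lactate transporters and a broadly expressed glycoprotein, had 58.35, 64.5, 84.2 and 97.4 RPKM (0.56 ± 0.178; limma, adjusted p = 0.389). Slc2a6, a member of the glucose transporter family, measured 1.40 and 1.70 RPKM in WT against 0.320 RPKM in JMJD1B-/- replicate 2, and the other JMJD1B-/- library lists it at 0 (limma, adjusted p = 0.426). Of 11 other genes of glycolysis and pyruvate entry, 0 were lower and 1 was higher, namely Minpp1, an inositol phosphate phosphatase that can also remove a phosphate from 2,3-bisphosphoglycerate, with 55.35, 76.7, 89.8 and 116.6 RPKM (0.65 ± 0.227; limma, adjusted p = 0.425). Of 11 other genes of the pentose phosphate pathway and ribose use, 0 passed in either direction, and their median log2 difference was 0.24.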

How the data were processed

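Polyadenylated RNA of HSPCs, extracted with the Qiagen RNeasy micro kit and made into libraries with the TruSeq RNA kit V2, was measured in 2 WT and 2 JMJD1B-/- samples. The authors deposited a table of RPKM values to which they had added 1, which was removed here. The table has 12024 entries for 11982 names, and the 42 names with more than 1 entry were averaged. The highest value of a gene as deposited is never under 2, so genes that reached 1 RPKM in no library were not analysed here. The submitters' processing notes name Novoalign, TopHat2 and the build mm9 without their roles, and the counting program and annotation are not given in the sources used here. No coordinates of mm9 were used. Promoter sequences are those of RefSeq for GRCm38.p6, in which 39 of 39 listed genes matched, Pkm2 as Pkm.

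The 11863 genes whose mean over the libraries was 0.5 RPKM or more were compared two-sided on the log2(RPKM + 0.1) scale by limma 3.58.1 (R 4.3.3; a linear model with eBayes and its trend option), with Benjamini-Hochberg adjustment over all of them. Fold changes on this scale understate those of low genes. Groups were taken from the sample labels, the series text calls the samples of a group biological replicates, and ChIP-seq samples were not used here. Depth was estimated from 4131 genes whose values fall on whole numbers of bases in all libraries (tolerance 0.003), with 51 bases taken as 1 read. The absolute scale came from 89 genes and their RefSeq lengths. For JMJD1B-/- replicate 1 the first estimate made 90.7% of counts even, against 44.5% in WT replicate 2 and 43.1% in JMJD1B-/- replicate 2, and it was lowered for that reason. Depths and read numbers given here rest on these estimates. In simulated data, 200 of 11863 genes, drawn from those above a minimum level, differed 4-fold. The dispersion was assumed at 0.05, which these libraries may exceed, and all transcripts were given the same length. There limma gave the right sign for 100% of the 200 genes and an adjusted p under 0.05 for 97%. The 97% is not the sensitivity in these libraries, where Ldhb, at 17.9% of the WT mean in JMJD1B-/-, had an adjusted p of 0.196 in limma. Values were given in every library for members with an unadjusted p under 0.05, members of steps with more than 1 listed gene and the 10 with the highest WT level. Of other lists, genes with an unadjusted p under 0.05 were named, at most the 5 with the lowest p, and marker genes, Kdm3b, Xist and Ddx3y stand beside the results they touch. Hba-a1, Hba-a2, Hbb-b1, Hbb-b2, Mpo, S100a8, S100a9, Retnlg, Camp, Prss34, Prg2, Bglap, Kit and Ly6a were named after their values were seen. The members, lists and tests were chosen with earlier results of these data known. The 13 alternatives were other pseudocounts, filters, scalings and tests, a replicate term and leaving out each library. Tables and figures were made with Python 3.11.15, pandas 2.3.3, numpy 2.4.6, scipy 1.17.1 and matplotlib 3.10.9.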

Additional observations from a re-analysis of the deposited data

How the results depend on the processing

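At an unadjusted p under 0.05, 4 members were lower in JMJD1B-/-, against 1 in the gene-by-gene test and 2 to 7 when 1 library was left out. The 2 higher members became 4 under median-ratio scaling (where 5.31% of all genes were higher, against 3.81%), 0 in limma without a trend and 0 to 6 when 1 library was left out. The number of members with an adjusted p under 0.05, which was 0, became 3 (Hk3, Pklr and Ldhb) with a replicate block and 0 to 5 when 1 library was left out. At an unadjusted p under 0.05, the block gave 6 lower and 3 higher members, adding Hk2, Pkm2 and Pfkm to the 6 genes, where 7.70% of all genes were lower and 4.81% higher. Over all genes, 5 had an adjusted p under 0.05, against 18 with a pseudocount of 1, 3 with a pseudocount of 0.01 or a mean RPKM of at least 1, 1 under either scaling, 0 without a trend, gene by gene or without WT replicate 2, 256 with the replicate block, and 630 and 669 without JMJD1B-/- replicate 1 and 2. The replicate numbers do not pair the samples by their labels, and the replicate gaps of the genotypes correlated with r = -0.0543 across 11863 genes. The median log2 difference of the members lay between -0.114 and 0.198 when 1 library was left out, and without JMJD1B-/- replicate 1 that of all genes shifted by 0.111. Of all calls, 751 were lower and 452 higher (62.4% lower), and after quantile normalization 714 were lower and 671 higher (51.6%). The log2 differences of 16 members changed sign somewhere, and each of these was within 0.25 of 0 with all libraries. With quantile normalization they were -0.0425 for Aldoa, -0.041 for Tpi1, -0.0491 for Eno1, 0.171 for Pdk2, -0.0627 for Pdha1 and 0.0407 for Pfkfb1, and with a pseudocount of 1 that of Pdk2 was 0.0236. Leaving out 1 library gave Hk1 -0.114 to 0.397, Gpi1 -0.376 to 0.092, Pfkl -0.494 to 0.198, Aldoa -0.242 to 0.307, Tpi1 -0.0392 to 0.141, Eno1 -0.21 to 0.241, Ldha -0.322 to 0.227, Pdk1 -0.322 to 0.118, Pdk2 -1.08 to 0.915, Pdk3 -0.0978 to 0.484, Pdha1 -0.12 to 0.125, Dld -0.0131 to 0.346, Pfkfb2 -0.0377 to 0.252, Taldo1 -0.139 to 0.000781 and Bpgm -0.0692 to 0.54. The cause of these changes was not tested. Of 54 comparisons of the 6 genes with p under 0.05 under alternatives that keep all libraries, 47 stayed under 0.05, and of 24 with a library left out 18 did, and all kept their direction. A library left alone in its group is assumed to vary like the other group. The 6100000 reads of JMJD1B-/- replicate 1 limit what can be said of members under about 1 RPKM there, Ldhb and Pdk2.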

Other observations

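The tricarboxylic acid cycle takes up the acetyl-CoA made by the pyruvate dehydrogenase complex. Of its 21 listed genes, 3 were higher and 0 lower in JMJD1B-/- at an unadjusted p under 0.05. Over all genes tested, 3.81% were higher and 6.33% lower. The median log2 difference of the list was 0.22, and 0 of its genes passed an adjusted 0.05 in limma. Pcx, pyruvate carboxylase, which makes oxaloacetate from pyruvate, had 1.82, 2.25, 4.70 and 5.24 RPKM in WT replicates 1 and 2 and JMJD1B-/- replicates 1 and 2 (1.25 ± 0.352, SE; limma, adjusted p = 0.335). Sdhc, a membrane anchor of succinate dehydrogenase, had 25.3, 33.2, 41.7 and 43.6 RPKM, and Sdhd, the other anchor, had 39.7, 37.3, 47.6 and 76.8 RPKM. The summed RPKM of the 21 genes was 830.7, 870.5, 854.3 and 1107, so that the groups overlapped.

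Among 21 genes of glycogen and galactose use, 2 were lower and 0 higher (6.33% and 3.81% of all genes tested), with a median log2 difference of -0.19. Galk2 had 9.72, 8.18, 3.75 and 4.75 RPKM (-1.06 ± 0.282, SE; limma, adjusted p = 0.312), and Pgm2, a phosphopentomutase and phosphoglucomutase, had 8.90, 6.47, 2.49 and 4.89 RPKM (-1.10 ± 0.390; limma, adjusted p = 0.43). Of 18 regulators of hypoxia-inducible factors and their other targets, 3 were lower and 0 higher (6.33% and 3.81% of all genes tested), with a median of -0.11. These were Vhl, the ubiquitin ligase subunit that marks the factors for degradation, with 8.76, 8.25, 4.21 and 5.98 RPKM, Egln3, a prolyl hydroxylase, with 3.47, 2.99, 2.02 and 0.619 RPKM, and Ndrg1 with 20.8, 15.9, 9.35 and 14.1 RPKM. Hif1a had 13.7, 12.99, 13.9 and 11.6 RPKM and overlapped between genotypes. None of these differences passed an adjusted 0.05 in limma.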
